A study of Homo sapiens with 12 samples.

Results

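The cyclins and cyclin-dependent kinases (CDKs) that carry a cell through G1, together with inhibitors of these kinases, were followed upon knockdown of the RNA-binding protein IGF2BP1. The set comprises 10 of the 58174 genes listed for each cell line, found by their symbols: the D cyclins CCND1, CCND2 and CCND3, the E cyclins CCNE1 and CCNE2, the kinases CDK2, CDK4 and CDK6, and the inhibitors CDKN1B and CDKN2C. Poly-A-enriched RNA was sequenced from HepG2, a line from a liver tumour, and BE(2)-C, a neuroblastoma line. Each line was transfected with a control siRNA (siC) or with a pool of siRNAs directed against IGF2BP1 (siI1) and harvested 72 h later, with 3 libraries per siRNA and line and 12 in all. By the methods given for these cells, the siRNA concentration was higher in BE(2)-C than in HepG2. The values are FPKM, which takes out gene length and library size, the latter scaled by the authors. The number of reads behind a value was recovered from its gene length. The siC libraries of HepG2 held between 13465944 and 15176939 reads on genes, and the siI1 libraries between 13398903 and 14858343. For BE(2)-C the siC libraries held between 12852988 and 14662575 reads and the siI1 libraries between 13649325 and 15721210.

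D cyclins bind CDK4 and CDK6 in early G1, and these complexes phosphorylate the retinoblastoma protein and its relatives, which hold E2F transcription factors in check. Released E2F factors drive genes of DNA replication and also CCNE1 and CCNE2, whose products activate CDK2 at the entry into S phase. CDKN1B (p27) binds and blocks cyclin E-CDK2 complexes, and CDKN2C (p18) keeps CDK4 and CDK6 away from D cyclins. IGF2BP1 binds mRNAs, often in the 3′UTR, and is known to shield many of them from degradation guided by miRNAs.

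The let-7 and miR-15/16 families are known as regulators of cell cycle genes, so the mature sequences of a member of each are shown, with the seed, bases 2 to 8, in capitals (RefSeq, GRCh38.p14).
let-7a-5p: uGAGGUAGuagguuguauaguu
miR-16-5p: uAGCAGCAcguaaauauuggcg
The letters that pair with the let-7a seed, CTACCTC, were in the longest annotated 3′UTR (GENCODE 44, hg38) of 0 of the 10 genes. They were in 11.6% of the 3′UTRs of 14215 genes tested in at least 1 of the lines, so 0 of 10 is near that share. Other forms of a let-7a match were not searched. The letters TGCTGCT, which pair with the miR-16 seed, were in the 3′UTR of 6 of the 10 genes and in 25.6% of the 14215. The 6 genes were the D cyclins CCND1, CCND2 and CCND3, the E cyclin CCNE1 and the kinases CDK4 and CDK6, with 2 matches each in CCNE1 and CDK6. Length differs between these 3′UTRs, from 535 nt in CCNE1 to 10219 nt in CDK6, against a median of 1426 nt. A match says nothing about binding, and no miRNA was measured in these libraries.

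Of these 6 genes, CCND1, CCND2, CCNE1 and CDK6 were called in HepG2 with each replicate left out in turn, and for them the 30 bases that end just after each match are shown 5′ to 3′ on the strand of the gene, with the match in capitals. They lie at chr11:69653293-69653322 (CCND1), chr12:4301751-4301780 (CCND2), chr19:29824002-29824031 and chr19:29824240-29824269 (CCNE1), all on the plus strand, and at chr7:92609660-92609689 and chr7:92608750-92608779 on the minus strand (CDK6).
CCND1: tgtgtatctctttcacattgttTGCTGCTa
CCND2: agctgtaatgtttcacagagtgTGCTGCTa
CCNE1, first match: agacaccagtgcgtgctcccgaTGCTGCTa
CCNE1, second match: ctttgatgaactgttttgtaagTGCTGCTa
CDK6, first match: gttaaaacacacataccctctcTGCTGCTt
CDK6, second match: gctttccgaggtcagagtgcccTGCTGCTg
In CCND1, CCND2 and CCNE1 the base after the match is an A, and in CCND3, CDK4 and CDK6 it is another base. Upon knockdown in HepG2, CCND2, CCNE1, CDK4 and CDK6 fell, CCND1 rose and CCND3 did not pass the threshold.

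Promoter sequences, 250 bases before to 50 after a start site, were matched for 6 of the 10 genes, with 11 windows in all (RefSeq, GRCh38.p14). CCND1, CCND2, CCNE2 and CDK2 had no entry. The E2F letters TTTCCCGC and TTTGGCGC, searched on both strands, were in 0 of the 11 windows and in 2.27% of the 35116 promoters of the table. The 0 of 11 is near that share, and other forms of the E2F site were not searched. The E-box CACGTG, the letters bound by MYC proteins, was in 4 of the 11 windows and in 7.26% of all promoters. The windows with it belonged to CDK4, CDK6 and CDKN2C, with more than 1 window of CDKN2C, so they do not stand for separate genes. The window of CDK4 at chr12:57752261-57752560, minus strand, held 3 E-boxes, and 0.094% of the promoters had that many or more. It is shown because no other window of the set held more than 1.
CDK4, E-boxes in capitals: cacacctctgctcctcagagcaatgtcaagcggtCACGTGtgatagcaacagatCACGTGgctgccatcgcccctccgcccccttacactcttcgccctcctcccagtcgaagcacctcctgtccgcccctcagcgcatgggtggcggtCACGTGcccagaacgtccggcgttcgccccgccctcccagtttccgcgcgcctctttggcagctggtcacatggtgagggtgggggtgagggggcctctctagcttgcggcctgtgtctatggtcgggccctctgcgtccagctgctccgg

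IGF2BP1 on chromosome 17 (48997385 to 49056145, plus strand) had an FPKM of 48.5, 46.6 and 50.8 in the siC libraries of HepG2 and of 12.6, 10.7 and 10.7 in the siI1 libraries. BE(2)-C cells had 21.3, 20.6 and 21.6 with siC and 4.85, 4.75 and 4.87 with siI1. Every siI1 library of both lines was thus below every siC library of its line, and the mean FPKM fell by 76.7% in HepG2 and by 77.2% in BE(2)-C. The difference of the knockdown effects between the lines was -0.02 on the log2 scale, with a 95% interval of -0.22 to 0.19.

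Each line carried its own markers. In HepG2, 10 of 10 liver markers reached an FPKM of 1 in each library, whereas 0 of the 10 neuroblastoma markers did, and 7 to 9 of these were at 0 in a library. BE(2)-C showed the converse, with 10 of 10 neuroblastoma markers at 1 or more and 5 to 8 of the 10 liver markers at 0. The summed FPKM of the other line's markers reached at most 0.269 in a library of HepG2 and at most 0.434 in BE(2)-C. The liver markers of HepG2 moved with the knockdown. Their summed FPKM came to 7874, 7830 and 7803 with siC, and to 12916, 14544 and 14701 with siI1. ALB, the albumin gene, was the most abundant in each of these libraries, and 6 of the 10 rose and 2 fell, beside 21.9% and 23.0% of all tested genes, so the 2 that fell are near that share. TF had a log2 fold change of 1.93 and APOA1 of 1.70, while TTR had -0.77 and AFP -0.59. Among the neuroblastoma markers of BE(2)-C, 4 of 10 fell, including the transcription factor HAND2 (-0.73), and 3 rose, including STMN2 (0.58) and TH (0.61), beside 14.8% and 13.3% of all tested genes. In that line the markers summed to 3835, 3601 and 3626 with siC and 4041, 3924 and 4002 with siI1, with MYCN the most abundant. Whether these shifts bear on the G1 genes was not tested.

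Upon IGF2BP1 knockdown in HepG2, 6 of the 10 genes were lower, CCND2, CCNE1, CDK6, CDKN1B, CDK2 and CDK4, against 23.0% of all 19436 tested genes. CCND1 was higher, 1 of 10 against 21.9%, which makes 7 of 10 in either direction against 44.8%. Genes were tested where at least 3 libraries of a line had an FPKM of 0.1 or more, by limma on log2(FPKM + 0.1) with Benjamini-Hochberg adjustment over all tested genes and a threshold of 0.05, and fold changes are on that scale, which understates changes of genes with low expression. For BE(2)-C, 3 genes were lower, CCNE1, CDK2 and CDKN2C, of 9 that passed the filter, against 14.8% of 18656 tested genes. By limma, 0 of the 9 were higher there, against 13.3%, with CCNE2 the 1 gene above siC at an unadjusted p below 0.05, and the 3 of 9 in either direction are near the background of 28.2%. The 6 lower and 1 higher in HepG2 became 3 and 1 without siC replicate 3 or siI1 replicate 2, and 3 and 2 without the mean-variance trend. With equal sums of FPKM, 7 were lower, CCNE2 among them, and CCND1 was not called. The 3 in BE(2)-C became 1 without siC replicate 3, siI1 replicate 2 or the mean-variance trend and 0 without siI1 replicate 3, all in limma. The median log2 fold change of the set was -0.27 in HepG2 and -0.14 in BE(2)-C, beside 0.01 and 0.02 over all tested genes. Over all tested genes, the median size of the change, regardless of its sign, was 0.46 in HepG2 and 0.29 in BE(2)-C. The share of all genes called was larger at higher expression. With a filter at an FPKM of 1, 4186 of 13055 genes were lower in HepG2 and 3739 higher, with 6 and 2 of 9 members. In BE(2)-C, 2829 of 12337 genes were then lower and 2281 higher, with 3 and 0 of 9 members. The shares given beside the related lists below are also over genes down to an FPKM of 0.1. In RNA from whole cultures, less mRNA per cell and fewer cells in the phase that expresses it cannot be told apart.

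**Figure D1:**
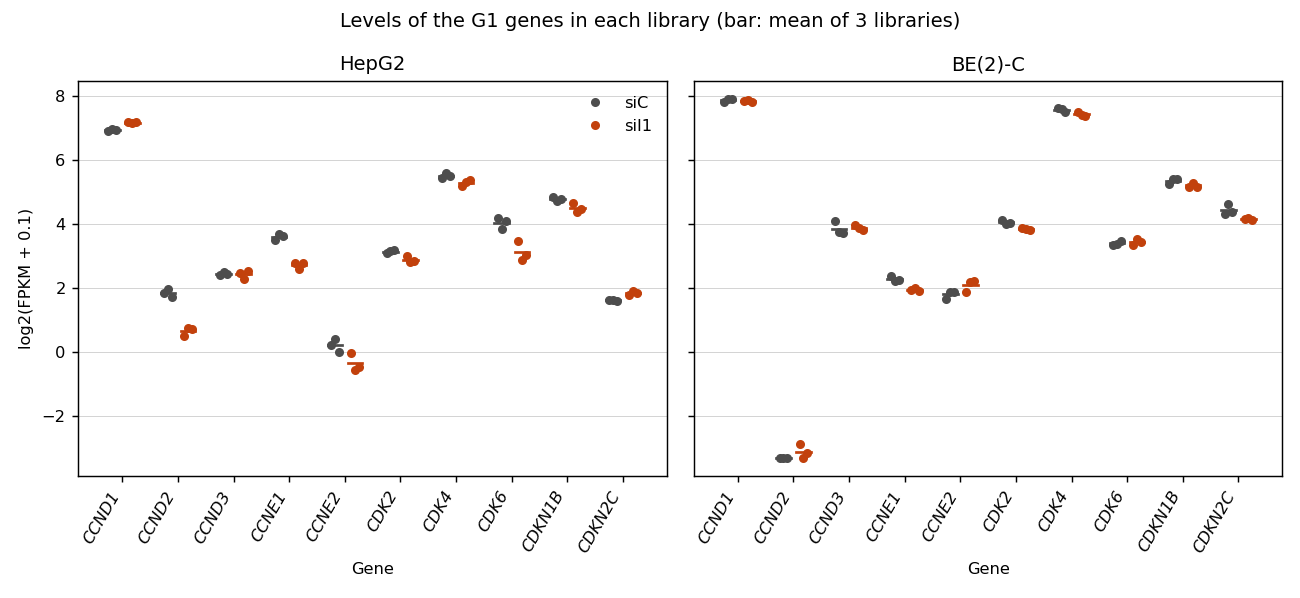
FPKM of the 10 G1 genes in each library as log2(FPKM + 0.1), with HepG2 on the left and BE(2)-C on the right, siC in grey, siI1 in orange and a bar at the mean of 3 libraries. CCND2, CCNE1 and CDK6 are well below siC in HepG2, and CCND2 lies at the floor of the scale in BE(2)-C.

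**Figure D2:**
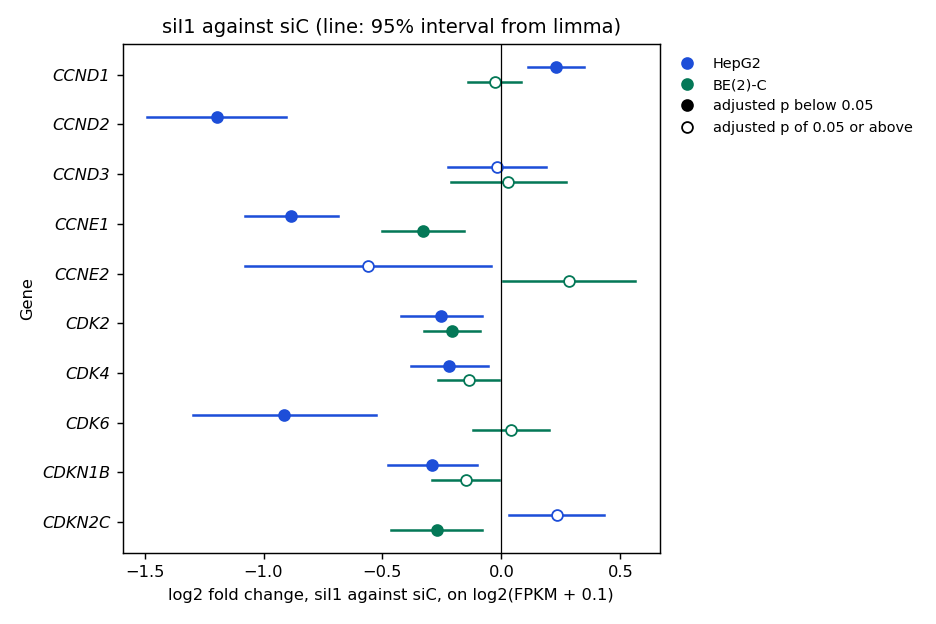
Log2 fold change of siI1 against siC for each G1 gene on the horizontal axis, with its 95% interval from limma, in HepG2 (blue) and BE(2)-C (green), filled where the adjusted p was below 0.05. CCND2 was not tested in BE(2)-C and has no green point, and the intervals of CCNE1 are below 0 in both lines.

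Among the D cyclins of HepG2, CCND2 fell while CCND1, the most abundant of them, rose. CCND2 (chromosome 12, 4269771 to 4305353, plus strand) had an FPKM of 3.51, 3.80 and 3.20 with siC and 1.31, 1.58 and 1.53 with siI1, which rest on 127 to 390 reads. All siI1 values were under the lowest siC value and the mean was 58% lower, with a log2 fold change of -1.20 (limma, SE 0.12, adjusted p = 0.00033). CCND2 was listed at 0 in the 3 siC libraries of BE(2)-C, where 3 reads would be an FPKM of 0.0292 to 0.0327, and had 4, 0 and 1 reads with siI1, so it failed the filter and no fold change is given. CCND1 (chromosome 11, 69641156 to 69654474, plus strand) had an FPKM of 121, 126 and 123 with siC and 146, 142 and 146 with siI1 in HepG2. Its siI1 libraries were above its siC libraries by 17.2% of the siC mean, a log2 fold change of 0.23 (limma, SE 0.05, adjusted p = 0.0092). With equal sums of FPKM in all libraries, the fold change of CCND1 was 0.06 (limma, adjusted p = 0.38). That scaling moved the median of all tested genes in HepG2 by -0.15, and relative to the median CCND1 stood at 0.22 before and 0.21 after it. CCND1 had, in BE(2)-C, 225, 241 and 241 with siC and 230, 234 and 227 with siI1, with overlapping groups (log2 fold change -0.03, 95% interval -0.14 to 0.08). CCND3 (chromosome 6, 41934934 to 42050357, minus strand) overlapped between the groups in both lines, with an FPKM of 4.78 to 5.70 in HepG2 and of 13.1 to 16.9 in BE(2)-C. Its log2 fold change was -0.02 in HepG2 (95% interval -0.23 to 0.19), positive at 0.02 under median centring, and 0.03 in BE(2)-C (95% interval -0.21 to 0.27). With equal sums of FPKM it was -0.18 in HepG2 (limma, adjusted p = 0.17).

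CCNE1, the E cyclin with the higher FPKM in the siC libraries of both lines, was lower upon knockdown in each. In HepG2, CCNE1 (chromosome 19, 29811991 to 29824312, plus strand) had an FPKM of 11.2, 12.7 and 12.1 with siC and 6.79, 5.90 and 6.72 with siI1. The mean fell by 46.1% without overlap of the groups (limma: log2 fold change -0.88, SE 0.08, adjusted p = 0.00022). The values in BE(2)-C were 5.05, 4.59 and 4.63 with siC and 3.75, 3.86 and 3.67 with siI1, which rest on 130 to 185 reads. This smaller decrease, 20.9% of the mean, also came without overlap (limma: log2 fold change -0.33, SE 0.07, adjusted p = 0.015), and the adjusted p was 0.059 without siI1 replicate 3. CCNE2 (chromosome 8, 94879770 to 94896678, minus strand) did not pass the threshold in either line. HepG2 libraries had an FPKM of 1.05, 1.22 and 0.894 with siC and 0.874, 0.578 and 0.612 with siI1, on 36 to 73 reads, and the groups did not overlap (limma: log2 fold change -0.56, SE 0.22, adjusted p = 0.075). CCNE2 in BE(2)-C had 3.06, 3.58 and 3.55 with siC and 3.56, 4.44 and 4.50 with siI1, with overlapping groups (limma: log2 fold change 0.28, SE 0.12, adjusted p = 0.12). CCNE2 passed the threshold without siI1 replicate 1, lower in HepG2 (adjusted p = 0.029) and higher in BE(2)-C (adjusted p = 0.049), both from limma. With equal sums of FPKM, its adjusted p in HepG2 was 0.046 from limma. With a pseudocount of 1, its log2 fold change in HepG2 was -0.29 (limma, adjusted p = 0.065). INTS8, on the opposite strand, shares 1629 of the 4397 exonic bases of CCNE2, and while the methods describe the libraries as strand-specific, the strand setting of the read counting is not given, so whether their reads were kept apart is not known. INTS8 itself had a log2 fold change of -0.44 in HepG2 (limma, adjusted p = 0.017) and 0.25 in BE(2)-C (limma, adjusted p = 0.099).

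The kinases fell to different extents in HepG2, with CDK6 the furthest. CDK6 (chromosome 7, 92604921 to 92836573, minus strand) had an FPKM of 18.0, 14.2 and 16.9 with siC and 10.9, 7.29 and 8.03 with siI1, on at least 1302 reads. The highest siI1 library was under the lowest siC library, and the mean fell by 46.6% (limma: log2 fold change -0.91, SE 0.16, adjusted p = 0.0039). CDK6 in BE(2)-C had 9.97, 10.4 and 11.0 with siC and 10.1, 11.5 and 10.7 with siI1, and the groups overlapped (log2 fold change 0.04, 95% interval -0.12 to 0.20). CDK2 (chromosome 12, 55966781 to 55972789, plus strand), the partner of the E cyclins, was the other gene that fell in both lines. Its FPKM went from 8.37, 8.72 and 8.98 with siC to 7.86, 6.97 and 7.03 with siI1 in HepG2, and from 17.2, 15.9 and 16.4 to 14.7, 14.1 and 14.0 in BE(2)-C. The groups did not overlap in either line, and the log2 fold changes were -0.25 (limma, SE 0.07, adjusted p = 0.026) and -0.21 (limma, SE 0.05, adjusted p = 0.020). These calls were close to the threshold. In HepG2, the limma adjusted p of CDK2 was 0.052, 0.073 and 0.095 without siC replicates 1, 2 and 3, 0.086 and 0.082 without siI1 replicates 2 and 3, and 0.056 without the mean-variance trend. With equal sums of FPKM its log2 fold change in HepG2 was -0.42. The adjusted p of CDK2 in BE(2)-C from limma was 0.051 without siC replicate 3, 0.072 and 0.077 without siI1 replicates 2 and 3, and 0.069 without the trend.

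CDK4 (chromosome 12, 57747727 to 57756013, minus strand) had an FPKM of 43.0, 48.3 and 45.7 with siC and 36.6, 40.0 and 41.2 with siI1 in HepG2. It fell by 14.1% of the mean without overlap of the groups (limma: log2 fold change -0.22, SE 0.07, adjusted p = 0.036). This call was lost without siC replicate 2 (0.11) or 3 (0.10), without siI1 replicate 1 (0.051) or 2 (0.077), without the filter (0.057), without the trend (0.096) and under median centring (0.065), all adjusted p-values from limma. With equal sums of FPKM the log2 fold change of CDK4 in HepG2 was -0.39 (limma, adjusted p = 0.00052). The values of CDK4 in BE(2)-C were 198, 194 and 181 with siC and 183, 169 and 168 with siI1, a log2 fold change of -0.14 (95% interval -0.27 to -0.01, adjusted p = 0.11 from limma), and siI1 replicate 1 lay within the siC range. TSPAN31, on the opposite strand, shares 1369 of the 3094 exonic bases of CDK4, with an FPKM of at most 4.18 in HepG2 and 6.04 in BE(2)-C and a log2 fold change of 0.57 in HepG2 (limma, adjusted p = 0.0063). CDK2 shares 565 of 3887 exonic bases with a lncRNA gene on the opposite strand that reached an FPKM of 1.30 in HepG2 and 7.46 in BE(2)-C, with a log2 fold change of -1.53 in HepG2 (limma, adjusted p = 0.040).

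Of the inhibitors, CDKN1B fell in HepG2 and CDKN2C fell in BE(2)-C. CDKN1B (chromosome 12, 12685498 to 12722369, plus strand) had an FPKM of 28.8, 26.3 and 27.4 with siC and 24.9, 20.7 and 21.8 with siI1 in HepG2, each siI1 library under each siC library. The log2 fold change was -0.29 (limma, SE 0.08, adjusted p = 0.022). Its adjusted p was 0.079 and 0.066 without siC replicates 1 and 3, 0.071 and 0.069 without siI1 replicates 2 and 3, and 0.061 without the mean-variance trend, and with equal sums of FPKM its log2 fold change was -0.46. CDKN1B had 38.0, 42.3 and 42.6 with siC and 36.0, 38.8 and 35.9 with siI1 in BE(2)-C, where siI1 replicate 2 was within the siC range (log2 fold change -0.15, standard error 0.06, adjusted p = 0.11 from limma, or 0.033 without siC replicate 1).

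CDKN2C (chromosome 1, 50960745 to 50974634, plus strand) had fold changes of opposite sign in the 2 lines. In HepG2 it had an FPKM of 3.01, 2.99 and 2.90 with siC and 3.34, 3.64 and 3.52 with siI1, all siI1 libraries above all siC libraries, a log2 fold change of 0.23 that missed the threshold (limma, SE 0.08, adjusted p = 0.060). The adjusted p was 0.038 without siI1 replicate 1, 0.036 under median centring, 0.046 without the trend and 0.040 with a filter at an FPKM of 1, while equal sums of FPKM took the log2 fold change to 0.07 (limma, adjusted p = 0.56). BE(2)-C had, for CDKN2C, 19.7, 24.4 and 20.9 with siC and 17.9, 18.2 and 17.4 with siI1, all siI1 libraries below all siC libraries (limma: log2 fold change -0.27, SE 0.08, adjusted p = 0.044). This call in BE(2)-C was lost without siC replicate 2 (0.055) or 3 (0.074), without siI1 replicate 1 (0.10), 2 (0.095) or 3 (0.13), without the filter (0.071), without the trend (0.10), under median centring (0.059) and with equal sums of FPKM (0.069), all adjusted p-values from limma.

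Whether the knockdown acted differently in the lines was tested on the difference of the log2 fold changes, BE(2)-C minus HepG2, in a joint limma fit of the 12 libraries. The effects differed for 5 of the 9 genes tested in both lines, against 40.2% of 15362 genes. With a filter at an FPKM of 1, 8 of the set were tested, and 2 differed in each direction. Of all 10029 genes tested with that filter, 2459 passed with a negative and 2992 with a positive difference. The count of the set is near that share of all genes. CDK6 differed by 0.95 (limma, SE 0.19, adjusted p = 0.0020), as it fell in HepG2. The difference was 0.85 for CCNE2 (limma, SE 0.24, adjusted p = 0.014) and 0.55 for CCNE1 (limma, SE 0.11, adjusted p = 0.0017), whose decrease was thus larger in HepG2. CDKN2C differed by -0.50 (limma, SE 0.11, adjusted p = 0.0029) and CCND1 by -0.26 (limma, SE 0.07, adjusted p = 0.0086). The difference of CCND1 was -0.07 with equal sums of FPKM (limma, adjusted p = 0.47), a scaling under which CDKN2C differed by -0.32 (limma, adjusted p = 0.037) and CDK4 by 0.27 (limma, adjusted p = 0.0028). With a pseudocount of 1, CCNE2 differed by 0.52. CDK2 differed by 0.04 (95% interval -0.14 to 0.23), CDK4 by 0.08 (-0.12 to 0.28), CDKN1B by 0.14 (-0.08 to 0.37) and CCND3 by 0.05 (-0.25 to 0.35). With equal sums of FPKM, CDK2 differed by 0.23 (limma, adjusted p = 0.098), CDKN1B by 0.33 (limma, adjusted p = 0.076) and CCND3 by 0.23 (limma, adjusted p = 0.19). The line and the siRNA concentration cannot be told apart in these differences.

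FPKM is given per gene length, so the members of a family can be set against each other within a library. That length is fixed for a gene, whichever of its transcripts are expressed. CCNE2 and CDK4 also share exonic bases with INTS8 and TSPAN31. Ratios between genes, here and in the order of levels, are thus approximate. CCND2 made up 2.71%, 2.81% and 2.43% of the summed FPKM of the D cyclins in the siC libraries of HepG2 and 0.858%, 1.07% and 0.997% in the siI1 libraries. CCND1 had the remainder, with CCND3, at 93.2%, 93.1% and 93.6% with siC and, higher in each library, 95.6%, 95.7% and 95.3% with siI1. CCND3 had 4.04%, 4.12% and 4.01% with siC and 3.55%, 3.23% and 3.72% with siI1, also without overlap, while its FPKM overlapped between the groups. The 3 shares add up to the whole, so they depend on each other. The groups overlapped for each of these shares in BE(2)-C, and CCND1 held 94.2% with siC and 94.0% with siI1.

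CCNE1 held 91.4%, 91.3% and 93.1% of the summed FPKM of the E cyclins with siC in HepG2 and 88.6%, 91.1% and 91.6% with siI1, with overlapping groups. BE(2)-C had 62.3%, 56.1% and 56.6% with siC and 51.3%, 46.5% and 44.9% with siI1, a decrease by 10.8 percentage points without overlap. CDK4 made up 70.5%, 77.2% and 72.9% of the sum of CDK4 and CDK6 with siC in HepG2 and 77.0%, 84.6% and 83.7% with siI1, so siI1 replicate 1 lay within the siC range, while in BE(2)-C it held between 93.6% and 95.2% in every library. Of the 10 shares, 4 had groups without overlap, among them the 3 of the D cyclins in HepG2, each with p = 0.1 in an exact two-sided permutation test (0.25 adjusted over the 10 shares), the smallest p that 3 against 3 libraries allow.

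**Figure D3:**
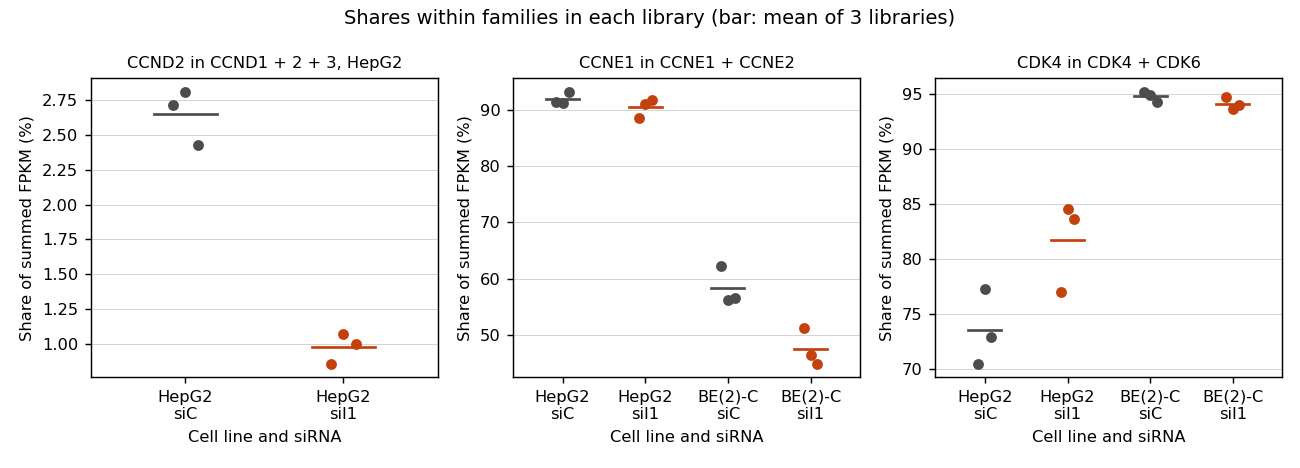
Share of the summed FPKM of a family, in percent, in each library with siC (grey) and siI1 (orange), with a bar at the mean of 3 libraries: CCND2 among the D cyclins in HepG2, CCNE1 among the E cyclins and CDK4 in CDK4 + CDK6. The vertical axes do not start at 0, and CCNE1 lies above 88% in HepG2 and between 44.9% and 62.3% in BE(2)-C.

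The order of the levels shared its top in the lines. In the siC libraries of HepG2, the mean FPKM was 123 for CCND1, 45.7 for CDK4, 27.5 for CDKN1B, 16.4 for CDK6, 12 for CCNE1, 8.69 for CDK2, 5.36 for CCND3, 3.51 for CCND2, 2.97 for CDKN2C and 1.06 for CCNE2, and neighbours in this order did not overlap. For BE(2)-C, it was 236 for CCND1, 191 for CDK4, 41.0 for CDKN1B, 21.7 for CDKN2C, 16.5 for CDK2, 14.5 for CCND3, 10.5 for CDK6, 4.76 for CCNE1 and 3.40 for CCNE2, with CCND2 listed at 0. CDK2 and CCND3 overlapped in this order, though not without siC replicate 1, and the other neighbours did not. CDKN2C ranked 9 in HepG2 and 4 in BE(2)-C, and CDK6 ranked 4 in HepG2 and 7 in BE(2)-C. As each table was scaled on its own, levels were ordered within a line and not tested across lines.

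Around these genes, other inhibitors of CDKs changed in ways that differed between the lines. CDKN2B (p15), which blocks CDK4 and CDK6, had an FPKM of 11.0, 11.4 and 11.3 with siC and 2.37, 2.20 and 2.08 with siI1 in HepG2, a log2 fold change of -2.30 (limma, adjusted p = 4.8e-06). CDKN1A (p21) had 5.98, 6.09 and 5.53 with siC and 0.997, 0.812 and 0.779 with siI1 in BE(2)-C, on 33 to 262 reads, a log2 fold change of -2.64 (limma, adjusted p = 8.6e-05). Each of these was the inhibitor furthest from 0 in its line. In the other line, CDKN1A had 0.17 (limma, adjusted p = 0.051), and CDKN2B, with at most 20 reads per library, had 0.25 (limma, adjusted p = 0.48). CDKN1A passed the threshold in HepG2, which makes 2 inhibitors higher, without siI1 replicate 1 (0.0096), with a pseudocount of 1 (0.0498), with a filter at an FPKM of 1 (0.040), under median centring (0.021) and with the replicate block (0.030), all adjusted p-values from limma. The effects differed by -2.81 for CDKN1A (limma, adjusted p = 3.5e-08) and by 2.55 for CDKN2B (limma, adjusted p = 1.5e-06). Of 5 such genes, 4 were tested in HepG2, with 2 lower, CDKN2B and CDKN2A (-0.76), and 1 higher, CDKN2D (0.48), beside 23.0% and 21.9% of all tested genes, so 1 of 4 higher is near that share. In BE(2)-C, 2 of 5 were lower, CDKN1A and CDKN2D (-0.54), and 0 higher, as also at an unadjusted p below 0.05 in limma, beside 14.8% and 13.3% of all tested genes. CDKN2A and CDKN2B lie side by side in the genome, and CDKN2A had a log2 fold change of 0.04 in BE(2)-C.

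Of the pocket proteins, which restrain E2F factors, RBL1 (-0.75) and RBL2 (-0.79) fell in HepG2, 2 of 3 beside 23.0% of all tested genes, and RB1 rose in BE(2)-C (0.27), 1 of 3 beside 13.3%. Limma called 0 of the 3 higher in HepG2 and 0 lower in BE(2)-C, against 0 and 1 at an unadjusted p below 0.05. The limma adjusted p of RB1 was 0.076 and 0.085 without siC replicates 1 and 3, 0.077, 0.11 and 0.058 without siI1 replicates 1, 2 and 3, and 0.081 without the trend, which leaves 0 of 3 higher. Among the 10 E2F and DP factors, 5 fell and 1 rose in HepG2, beside 23.0% and 21.9% of all tested genes, and 3 fell and 3 rose in BE(2)-C, beside 14.8% and 13.3%. E2F1, an activator of S phase genes, fell in both lines, from 17.2, 18.1 and 16.6 to 8.92, 11.3 and 11.0 in HepG2 and from 96.4, 85.0 and 83.5 to 51.0, 53.4 and 52.3 in BE(2)-C. Its log2 fold changes were -0.74 (limma, adjusted p = 0.0010) and -0.75 (limma, adjusted p = 0.00039). E2F2 also fell in both lines, by a log2 fold change of -1.05 in HepG2 (limma, adjusted p = 0.0056) and -0.91 in BE(2)-C (limma, adjusted p = 0.0017). E2F3 fell in HepG2 (-0.71), TFDP2, a dimerization partner of E2F factors, rose in HepG2 (0.57) and BE(2)-C (0.58), and E2F5 rose in BE(2)-C (0.54).

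Of the genes of CDK activation and turnover, 4 of 10 were lower and 1 higher in each line. The 5 of 10 called in either direction in HepG2 are near the 44.8% of all tested genes, and the share in BE(2)-C was 28.2%. The 4 became 2 in HepG2 without siC replicate 2 or siI1 replicate 2, and in BE(2)-C without siC replicate 2, siI1 replicate 1 or 2, or the trend. CCNH (-0.68) and MNAT1 (-0.51), subunits of the CDK-activating kinase, fell in HepG2, as did the phosphatase CDC25A (-0.32), and SKP1 (0.37), a subunit of the ubiquitin ligases that degrade cyclins and inhibitors, rose. In BE(2)-C, the CDK-binding protein CKS1B (-0.57), CDC25A (-0.42) and MNAT1 (-0.42) fell, and FBXW7 (0.68), which marks cyclin E for degradation, rose. The limma adjusted p of CDC25A in HepG2 was 0.0504, 0.0609 and 0.0635 without siC replicate 2, siI1 replicate 2 and siI1 replicate 3. That of MNAT1 in BE(2)-C was 0.0717 and 0.0674 without siC replicates 2 and 3, 0.0775 and 0.0878 without siI1 replicates 1 and 2, 0.0512 without the trend and 0.0518 with the replicate block. E2F target genes of DNA replication and proliferation were split in HepG2, with 7 of 17 lower and 4 higher (2 without siC replicate 1 or 3 or siI1 replicate 2 or 3), whereas in BE(2)-C 12 of 17 were lower and 0 higher in limma, with 1 higher at an unadjusted p below 0.05. Of all tested genes, 23.0% were lower and 21.9% higher in HepG2, and 14.8% and 13.3% in BE(2)-C, so 4 of 17 higher in HepG2 is near that share. Their median log2 fold change was -0.07 in HepG2 and -0.27 in BE(2)-C, beside 0.01 and 0.02 over all tested genes. In the joint limma fit, the effects on 12 of the 17 differed between the lines, against 40.2% of 15362 genes, a share that was larger with a filter at an FPKM of 1. The difference ran both ways, with the effect in BE(2)-C more negative for 8 and more positive for 4. RRM2 (-1.14) and CDC6 (-0.90) led the decrease in HepG2, where TYMS (0.44) and MYBL2 (0.36) rose, and in BE(2)-C it was TK1 (-0.83) and MYBL2 (-0.93), while RRM2 (-0.62) and TYMS (-0.43) fell there as well. MYBL2, a transcription factor of late G1 and S phase, thus moved in opposite directions, from 26.7, 26.1 and 27.3 to 30.4, 37.1 and 36.1 in HepG2 and from 213, 191 and 190 to 106, 100.5 and 103 in BE(2)-C.

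**Figure D4:**
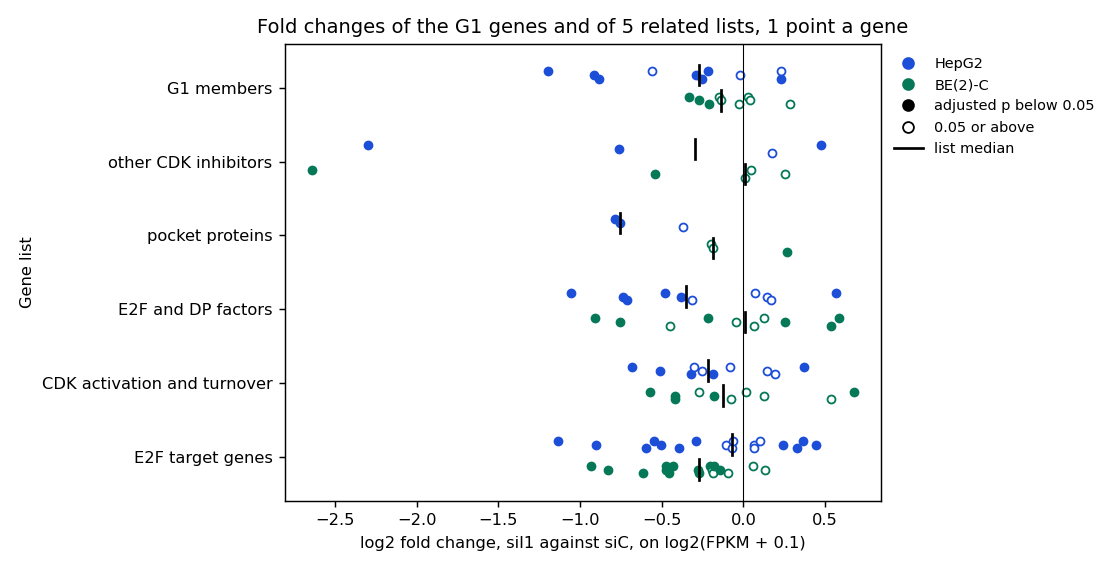
Log2 fold change of siI1 against siC on the horizontal axis for the G1 genes and 5 related lists, 1 point per tested gene, HepG2 in blue and BE(2)-C in green, filled where the adjusted p from limma was below 0.05, with a black bar at the median of each list. CDKN2B in HepG2 (-2.30) and CDKN1A in BE(2)-C (-2.64) stand furthest to the left, and the filled green points of the E2F target genes are below 0.

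CCNE1 and CDK2 were the members called in both lines, and the genes whose log2(FPKM + 0.1), centred on the siC mean of each line, ran closest to theirs over the 12 libraries were searched among 9855 genes with a mean FPKM of at least 1 in both lines. For CCNE1 these were EPB41L1, XBP1 and QSOX2, with a root mean square difference of 0.0585, 0.0637 and 0.0720 on the log2 scale. EPB41L1 had a log2 fold change of -0.91 in HepG2 and -0.35 in BE(2)-C, and XBP1, a transcription factor of the unfolded protein response, had -0.84 and -0.32. For CDK2 they were SLC25A44 (0.0344), UBE2N (0.0416) and PTBP1 (0.0417), the last a splicing regulator with log2 fold changes of -0.30 and -0.22. PTBP1 passed the threshold in BE(2)-C (limma, adjusted p = 0.042), but not with any replicate of that line left out. SLC25A44 did not pass it there (limma, adjusted p = 0.072). As all these genes were picked for running close to a member, like fold changes follow from the search.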

How the data were processed

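The authors clipped reads with Cutadapt 1.14, aligned them to hg38 with HISAT2 2.1.0, used SAMtools 1.5, counted reads per gene with featureCounts 1.5.3 on Ensembl 89 and tested each cell line with edgeR 3.30.3 under TMM scaling. The authors deposited a table per line with gene length and FPKM per library together with their own log2 fold change, p-value and FDR per gene, which were not used. That the values are FPKM was read from the numbers: each value multiplied by its gene length is a whole number of steps, for 100.0% of nonzero values (tolerance 0.05), and this gave reads per gene. Between 12852988 and 15721210 reads per library limit the precision of low values.

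Sample names in the headers assigned the columns. Here, log2(FPKM + 0.1) was fitted with limma 3.58.1 (R 4.3.3, data.table in version 1.17.8) with a mean-variance trend, for genes that reached an FPKM of 0.1 in 3 or more of the 6 libraries, two-sided, with Benjamini-Hochberg adjustment over all tested genes at 0.05. The difference between the lines was a contrast in a joint fit of 12 libraries. This procedure was tested on simulated data. Shares were compared by exact permutation. Positions, 3′UTRs and exon overlaps came from GENCODE 44 on hg38, a later annotation than the authors', and matched by Ensembl identifier. Python 3.11.15, NumPy 2.4.6, pandas 2.3.3 and Matplotlib 3.10.9 were used.

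Members and lists were chosen with earlier results of these data known. All members and IGF2BP1 are named, as are, for each other list, line and direction, up to 2 called genes with the smallest p. For each member called in both lines, the 3 nearest genes are named. Other values of list genes, such as E2F1 and MYBL2 per library, CDKN2A in BE(2)-C and genes with overlapping exons, and the sequences shown, were chosen after their values were seen. Alternatives covered pseudocounts of 0.01 and 1, filters, the trend, scalings, a replicate block and each replicate left out.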

Additional observations from a re-analysis of the deposited data

Results flagged for a closer look

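The effect of the knockdown differed between the lines, BE(2)-C minus HepG2 on the log2 scale in the joint limma fit, for CDK6 (0.95), CCNE2 (0.85), CCNE1 (0.55), CCND1 (-0.26) and CDKN2C (-0.50). For CCNE2, CDKN2C, CDK6 and CCND1, the fold changes had opposite signs in the lines, those of CDK6 and CCND1 in BE(2)-C being 0.04 and -0.03. For CCNE1 both were negative. With equal sums of FPKM, the difference of CCND1 was -0.07 (limma, adjusted p = 0.47). The lines also differed in siRNA concentration, so the line and the dose cannot be told apart.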

How the results depend on the processing

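CCND2, CCNE1 and CDK6 remained lower in HepG2, past the threshold, under each of 14 alternatives, and the differences of CDK6, CCNE1 and CDKN2C between the lines under each of 20. The 7 calls in HepG2 became 4 to 8 and the 3 in BE(2)-C became 0 to 4 when a replicate was left out. In HepG2, siI1 replicate 1 stood apart. Without it, 4973 of all tested genes were lower and 4574 higher, against 4463 and 4250 with all libraries. Leaving out any other HepG2 library lowered both counts. Without the mean-variance trend, BE(2)-C had 1 call. The cause was not tested. The 5 differences between the lines stayed at 5 in each of these fits, and the 4 shares without overlap became 4 to 6. The direction of CCND3, never called, turned in HepG2 to 0.0226 under median centring, and ran from -0.0717 to 0.0524 with a replicate left out, positive without siC replicate 2 (0.00912) and siI1 replicate 2. In BE(2)-C it ran from -0.0347 to 0.145, negative without siC replicates 2 (-0.0233) and 3 and siI1 replicate 1 (-0.00877). Its difference between the lines ran from -0.0232 to 0.164, negative without HepG2 siI1 replicate 2 and BE(2)-C siC replicates 2 (-0.00438) and 3 (-0.0158). CDK6 in BE(2)-C ran from -0.00892 (without siI1 replicate 2) to 0.0832, and CDKN1C, on 9 to 11 reads, from -0.0678 (without siC replicate 1) to 0.0996, with -0.0285 without siI1 replicate 3. CCNE2 in HepG2 rests on 36 to 73 reads, and whether depth limits its call was not tested. The pair of overlapping neighbours in the order of levels, an alternative added after the data were seen, numbered 1, and 0 to 1 with a siC replicate left out.

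With the replicate number as a block, 7 members were called in HepG2, 3 in BE(2)-C and 5 for the difference. Whether the numbers pair the libraries was not settled. Same-numbered deviations from group means correlated at 0.0625, 0.0351 and -0.0062 in HepG2 and 0.0225, -0.0102 and -0.0028 in BE(2)-C. These correlations cover all tested genes, and noise of low values weakens them. With the block, 4502 of all tested genes were lower and 4318 higher in HepG2, against 4463 and 4250 without it. In BE(2)-C the block gave 2531 and 2141, against 2763 and 2489. With equal sums of FPKM, 35.4% of the calls in HepG2 were higher, against 48.8%, and 69.0% of the differences between the lines were positive, against 54.0%.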
